A study of Mus musculus with 14 samples.

Results

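The nuclear genes of the mitochondrial ribosome were followed in mouse embryonic fibroblasts on their way to pluripotency. Members were the genes whose symbol starts with Mrpl or Mrps followed by a digit, without the 4 matching symbols that hold -ps. The rule found 38 genes, against 26962 identifiers in the tables as a whole, with 23 named Mrpl and 15 named Mrps. All 38 were annotated as protein-coding in GENCODE M21, which holds 78 protein-coding symbols of this pattern. The fibroblasts, of strain OG2/129SV, had received Oct4, Sox2, Klf4 and c-Myc, and all groups shared these factors and a stem cell medium with serum and LIF. Beside the factors, cells received Cdk9-DN, read from its name as a dominant-negative version of the P-TEFb kinase, or a control vector. Total RNA was sequenced from Cdk9-DN cells at days 3, 4, 5 and 10 after infection and from control cells at the same days. Each vector had 1 library at day 3 and 2 libraries at each later day, which makes 14. The labels do not say that replicate libraries came from separate cultures, so p-values measure the spread between these libraries only. They give neither the share of cells that took up the vectors nor the strand of the libraries.

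Mitochondria keep their own ribosome, which makes the few membrane proteins of the respiratory chain that mitochondrial DNA still encodes. Its RNA comes from mitochondrial DNA, while all of its proteins are encoded in the nucleus, made in the cytosol and imported. Mrpl genes encode proteins of the large subunit, which joins amino acids, and Mrps genes those of the small subunit, which reads the messenger RNA. Some have counterparts in bacteria and others occur in mitochondria only. Cdk9 releases paused RNA polymerase II into elongation, a step that most nuclear genes pass.

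Levels are in FPKM, which relate the fragments of a gene to the length of its transcript and the depth of the library. An order of genes by FPKM therefore also depends on the transcript lengths used for them. The bounds deposited with the FPKM values implied 8.79 to 13.0 M fragments per library. The members had a median of 217 to 353 implied fragments in a library, which corresponds to a counting error of 0.077 to 0.098 on the log2 scale. In the second control library of day 5 the 10 highest genes held 76.1% of the summed FPKM, against 40.4% in the first. They held 64.1% and 66.1% in the Cdk9-DN libraries of day 5, and 33.4% to 56.0% in the libraries of other days. Each library listed 24 to 30 members. Where a table lacks a gene, that library has no value for it, which is not the same as 0. The label of the cells was checked against markers listed in all 14 libraries. Of 12 fibroblast markers only 1 was so listed, decorin (Dcn), at 8.54 to 21.9 FPKM in every library up to day 5. At day 10 it was at 12.5 to 13.997 FPKM in Cdk9-DN cells and 3.73 to 4.42 FPKM in control cells. The macrophage markers Lyz2 and Tyrobp summed to 10.3 FPKM in the Cdk9-DN library and 8.91 FPKM in the control library of day 3. Over both vectors they summed to 2.65 to 2.85 FPKM at day 4 and 0.953 to 1.62 FPKM at day 5.

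Of the 38 members, 4 were listed in all 14 libraries and 6 in all 12 libraries of days 4, 5 and 10. Over these 12 libraries Mrps15, a small subunit protein with a bacterial counterpart, was the highest of the 6. It averaged 53.2 FPKM, between 47.6 and 57.8 FPKM. Mrpl39, which occurs in mitochondrial ribosomes only, averaged 35.6 FPKM, between 29.4 and 44.4 FPKM. Mrps11 averaged 31.9 FPKM and ranged more widely, between 20.03 and 43.1 FPKM, with 43.1 and 31.2 FPKM in the control libraries of day 4 alone. Mrpl16, a neighbour of the site where the peptide bond forms, averaged 26.3 FPKM, between 22.0 and 29.7 FPKM. Mrpl50 averaged 21.9 FPKM, between 13.98 and 25.3 FPKM. Mrpl35 was the lowest at 5.45 FPKM, between 4.17 and 6.14 FPKM. By implied fragments it was not the lowest, with a median of 235 over its libraries, against 189 for Mrpl39 and 201 for Mrps11. The ranges of Mrpl50 and Mrpl16, neighbours in the order by FPKM, overlap, as do those of Mrps11 and Mrpl39. In FPKM, Mrpl35 lies below every other member with a value above 0 in every library that lists it. Genes listed less often reached higher. Mrps21 stood at 243 to 364 FPKM in the 6 of 12 libraries listing it, and Mrpl52 at 167 to 213 FPKM.

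Levels alone can be given for 10 members, for which too few libraries remained for any comparison. Mrpl11 was at 41.2 to 48.8 FPKM, Mrpl4 at 32.3 to 53.5 FPKM, Mrpl42 at 82.1 and 83.6 FPKM and Mrpl55 at 28.3 to 31.8 FPKM. Mrps12 was at 39.4 and 45.7 FPKM, Mrps18c at 69.2 to 138 FPKM, and Mrps23 at 81.8 to 141 FPKM. The values of Mrps18c rested on a median of only 75.4 implied fragments. Mrpl52 was given above. Mrpl28 appeared in 1 library, the second control library of day 10, at 103 FPKM. Mrpl27 was listed at exactly 0 in 7 of the 8 libraries that list it and at 42.2 FPKM in the first control library of day 10. Such a 0 may be an estimate that failed, and these last 2 members did not pass the filter on low values, which the other 36 did.

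**Figure D1:**
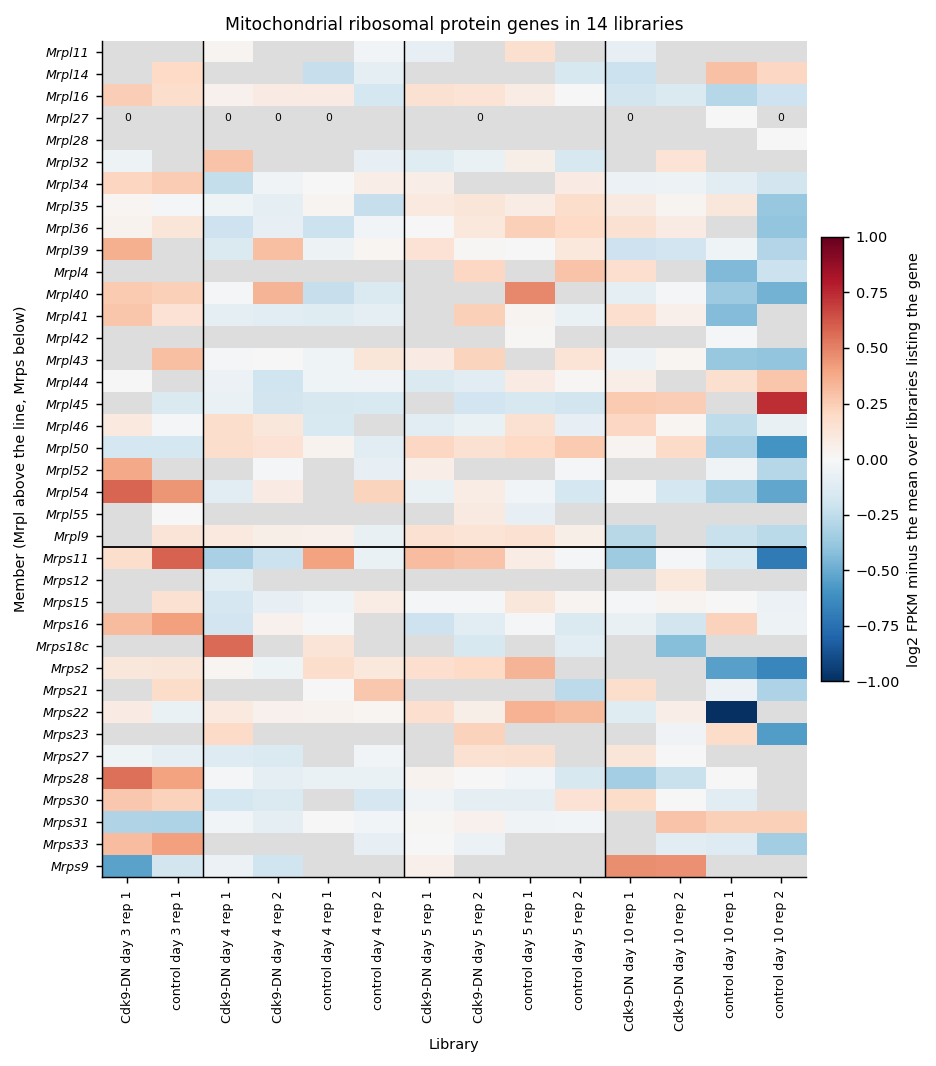
Heat map of the 38 members (rows, Mrpl above the line and Mrps below) in the 14 libraries (columns). Colour gives log2 FPKM minus the mean over the libraries that list the gene with a value above 0, capped at 1 in either direction; grey cells have no such value and a printed 0 marks a listed 0. In the day 10 control libraries that list them Mrps22 and Mrpl50 are blue and Mrpl45 is red, with the Cdk9-DN libraries of day 10 closer to the earlier days.

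Promoter windows from RefSeq (build GRCm38.p6, 250 bases before to 50 after a gene's start) were found for 35 members, in 36 windows. They had a median GC content of 58%, against 52.7% over all windows. Short words known from promoters of many genes, mitochondrial ones included, were searched on both strands. The NRF1 word, GCGCA followed directly by its reverse complement TGCGC, lay in windows of 3 members (8.57%), against 1.07% of all genes. The ETS word CCGGAAGT lay in 6 members (17.1%) against 4.31% of all genes, and the YY1 word AAGATGGCG in 5 members (14.3%) against 1.64%. The E-box CACGTG, which Myc proteins bind, lay in 2 members (5.71%) against 8.09% of all genes, and the Sp1 word GGGCGGGG in 3 members (8.57%) against 19.6%. All genes here means 27025 genes with a window, which were not matched to the members in expression or GC content. The shares are therefore a description only. A match is a description of the letters and no evidence of binding. The 150 bases before the start follow for 4 members whose levels changed between days, each with a match close to the start. The other members called in any comparison are not printed. The windows of Mrpl50, Mrpl41, Mrpl45, Mrpl16, Mrps2, Mrps31 and Mrps9 held none of the 5 words. Those of Mrpl14 and Mrpl40 held the Sp1 word, and no window was found for Mrps28. Capitals mark the matches. Mrps22 (chr9:98601680-98601829, minus strand) holds the Sp1 word 147 bases and the ETS word 11 bases before the start.
Mrps22: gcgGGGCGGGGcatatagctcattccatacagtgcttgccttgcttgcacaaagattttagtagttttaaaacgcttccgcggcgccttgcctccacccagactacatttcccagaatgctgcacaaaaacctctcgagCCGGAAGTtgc
Mrpl43 (chr19:45006443-45006592, minus strand) holds the ETS word 12 bases before the start.
Mrpl43: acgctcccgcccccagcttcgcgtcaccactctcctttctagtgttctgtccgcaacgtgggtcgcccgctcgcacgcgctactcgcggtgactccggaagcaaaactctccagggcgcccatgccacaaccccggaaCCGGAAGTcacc
Mrpl36 (chr13:73330859-73331008, plus strand) holds the E-box and the YY1 word on the other strand, 43 and 31 bases before the start.
Mrpl36: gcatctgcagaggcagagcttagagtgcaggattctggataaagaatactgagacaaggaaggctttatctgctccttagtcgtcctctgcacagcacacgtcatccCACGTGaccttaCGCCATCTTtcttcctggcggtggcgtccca
Mrpl9 (chr3:94443186-94443335, plus strand) holds the NRF1 word 28 bases before the start.
Mrpl9: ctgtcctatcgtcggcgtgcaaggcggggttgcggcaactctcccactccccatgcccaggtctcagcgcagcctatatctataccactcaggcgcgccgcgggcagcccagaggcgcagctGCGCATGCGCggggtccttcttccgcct
The words do not overlap one another in these windows.

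Whether Cdk9-DN changed the members was asked first at day 10. Of 24 members that could be tested, 5 were higher in Cdk9-DN cells (Mrps22, Mrpl50, Mrpl41, Mrpl36 and Mrpl43) and 3 were lower (Mrpl45, Mrpl14 and Mrps28). A gene was called at an adjusted p under 0.05 in limma on log2(FPKM + 1), adjusted after Benjamini and Hochberg over all genes. The 8 called members are 33.3% of those tested, against 28.9% of the 5740 genes tested, so their share is near that of all genes. Of all genes 14.5% were higher and 14.4% lower. The median member was 0.15 higher on the log2 scale in Cdk9-DN cells, while the median of all genes was 0.00. Of the 24 members, 17 were above 0 and 7 below. In bulk RNA, fewer cells of a type and less RNA per cell cannot be told apart. Between these groups the epithelial markers Cldn3, Cldn4 and Krt18 summed to 58.5 to 65.2 FPKM in Cdk9-DN cells and 262 to 271 FPKM in control cells. The pluripotency markers Dppa4, Dppa5a, Tdgf1, Utf1 and Zfp42 summed to 19.7 to 20.4 FPKM in Cdk9-DN cells and 45.8 to 53.6 FPKM in control cells. The endothelial markers Cdh5 and Cldn5 summed to 0.957 to 0.974 FPKM in Cdk9-DN cells and 3.68 to 3.81 FPKM in control cells. The macrophage markers Lyz2 and Tyrobp were at 0 in Cdk9-DN cells and summed to 0.0349 to 0.133 FPKM in control cells. Summed were the markers listed in all 14 libraries, 3 of 9 epithelial, 5 of 9 pluripotency, 2 of 4 endothelial and 2 of 6 macrophage genes, and none of 4 neural markers was listed throughout. The part of cell composition in the members' differences was not tested.

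The largest difference was in Mrps22, a small subunit protein without a bacterial counterpart (chr9:98489152-98502098 in mm9, the build of the files). It was at 15.99 and 18.3 FPKM in the Cdk9-DN libraries of day 10, against 8.43 FPKM in the 1 control library that lists it. The control value lay below both Cdk9-DN values, and the log2 difference was 0.94 (SE 0.088, limma adjusted p = 0.000903). Here and for other members listed in 1 library of a group, the spread comes from the other groups. Mrpl50 (chr4:49525468-49533965), a large subunit protein of mitochondria only, was at 21.6 and 24.2 FPKM in Cdk9-DN cells, against 16.9 and 13.98 FPKM in control cells. Both Cdk9-DN values lay above both control values, with a log2 difference of 0.54 (SE 0.095, limma adjusted p = 0.00615). Mrpl41 (chr2:24829637-24830618), also of the large subunit and of mitochondria only, was at 39.5 and 36.5 FPKM in Cdk9-DN cells, against 26.0 FPKM in the 1 listing control library. The log2 difference was 0.53 (SE 0.070, limma adjusted p = 0.00541).

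Mrpl36 (chr13:73468457-73469623), the counterpart of the smallest bacterial large subunit protein, was at 50.9 and 48.7 FPKM in Cdk9-DN cells and 34.8 FPKM in the 1 listing control library. The difference of 0.50 (SE 0.097, limma adjusted p = 0.0122) was no longer called without the first Cdk9-DN library of day 10. Mrpl43 (chr19:45079504-45080932), a large subunit protein of mitochondria only, was at 59.7 and 62.8 FPKM in Cdk9-DN cells, against 47.5 and 46.9 FPKM in control cells. The groups did not overlap, and the log2 difference was 0.37 (SE 0.069, limma adjusted p = 0.0114). It was no longer called without the second Cdk9-DN library of day 10. Mrpl43 shares 370 bases with Peo1 on the other strand, and if the libraries keep no strand, reads of both cannot be told apart there. Mrpl43 and Mrpl50 were the 2 called members with both libraries in both groups, of 12 members with all 4 values. In a fit on the 4 libraries of day 10 alone none of these 12 was called, and Mrpl50 had an adjusted p of 0.115 in limma.

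Mrpl45 (chr11:97177030-97191234), which lies at the exit of the ribosome's tunnel and helps hold the ribosome to the inner membrane, went the other way. It was at 49.98 and 49.5 FPKM in Cdk9-DN cells, against 69.5 FPKM in the 1 listing control library. The log2 difference was -0.48 (SE 0.061, limma adjusted p = 0.005). A processed pseudogene, Gm11594, shares 162 bases with Mrpl45 on the other strand. Mrpl14 (chr17:45823271-45835444), a protein of the face where the subunits meet, was at 68.3 FPKM in the 1 listing Cdk9-DN library, against 96.7 and 91.2 FPKM in control cells. Its log2 difference was -0.45 (SE 0.091, limma adjusted p = 0.0485). Mrps28 (chr3:8802146-8923918), a small subunit protein whose span holds 2 pseudogenes, was at 21.3 and 23.0 FPKM in Cdk9-DN cells, against 27.0 FPKM in the 1 listing control library. The log2 difference was -0.27 (SE 0.077, limma adjusted p = 0.0415). Mrpl14 lost its call with a pseudocount of 0.1, without the filter on low values and under quantile normalization. It also lost it in each of the 7 fits that left out 1 library and could still test it. Of the libraries left out there, only the second control library of day 5 lists Mrpl14, so in the others its own values were unchanged. Mrps28 kept its call in 3 of 11 such fits, those without either control library of day 5 or the second of day 10. It lost the call without the filter, under quantile normalization and with a replicate block (log2 difference -0.26).

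**Figure D2:**
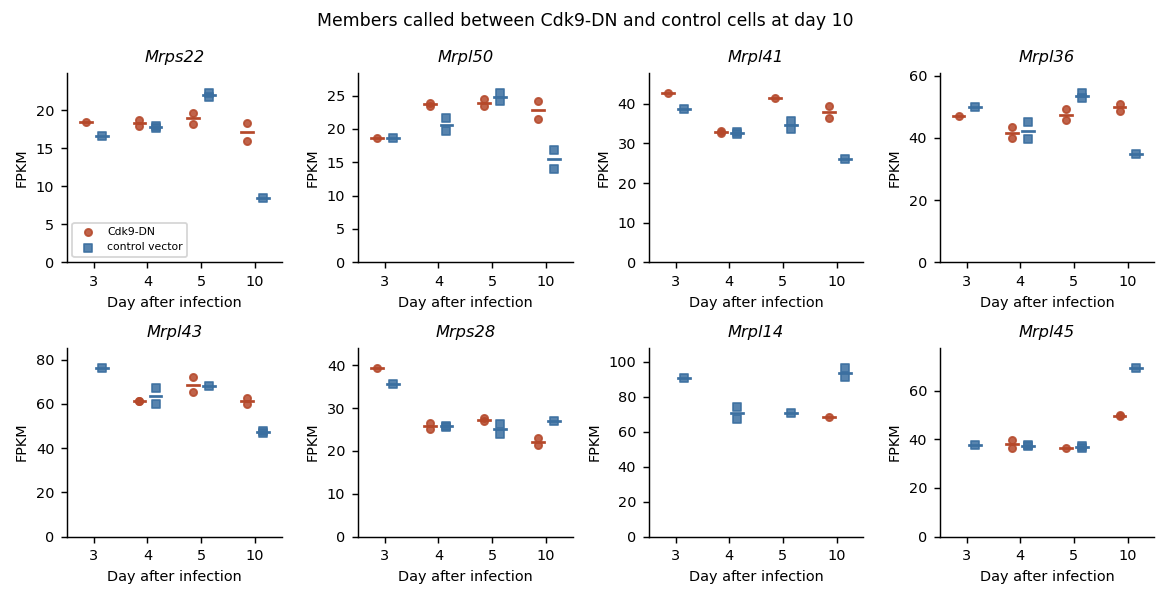
FPKM (vertical axes, from 0) of the 8 members called at day 10, by day after infection (horizontal axes). Circles are Cdk9-DN libraries, squares control libraries, and bars the mean of a group; day 3 has 1 library per vector. At day 10 Mrps22, Mrpl50, Mrpl41, Mrpl36 and Mrpl43 lie higher in Cdk9-DN cells, and Mrps28, Mrpl14 and Mrpl45 lie lower.

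Some called members could no longer be tested at day 10 without 1 of its libraries. Without the first control library these were Mrps22, Mrpl41 and Mrps28, with no control value left, and Mrpl14, with too few libraries. Without the second they were Mrpl45, Mrpl36 and Mrpl14, and without the first Cdk9-DN library Mrpl14. Calls tested and lost without either Cdk9-DN library, those of Mrpl36, Mrpl43, Mrpl14 and Mrps28, are given above. At an unadjusted p under 0.05 stood 11 of the 24 members, 3 of them uncalled, and 2297 of the 5740 genes. Mrpl40 had a log2 difference of 0.35 (limma adjusted p = 0.0973), Mrpl54 of 0.32 (adjusted p = 0.0781) and Mrpl46 of 0.26 (adjusted p = 0.112). By class, 3 of 10 tested large subunit members of mitochondria only were higher and 1 was lower, with a median of 0.29. Of 6 large subunit members with bacterial counterparts, 1 was higher and 1 lower, with a median of 0.08. Of 5 small subunit members with bacterial counterparts, none was higher and 1 was lower, with a median of 0.04. Of the 3 small subunit members of mitochondria only, 1 was higher. Beside these counts stand the 14.5% of all genes that were higher and the 14.4% that were lower, and classes of 3 to 10 genes were not tested against each other. Mrps30 carries a small subunit name but encodes a large subunit protein and was counted there. It was at 32.02 and 28.1 FPKM in Cdk9-DN cells and 26.1 FPKM in the 1 listing control library (log2 difference 0.20, limma adjusted p = 0.312).

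Up to day 5 no member was called between the vectors. At day 4 none of 24 tested members passed limma's test, against 0.0336% of all genes tested, and 2 had an unadjusted p under 0.05, as did 6.52% of all genes (Mrpl40 at 0.34 and Mrps15 at -0.14). At day 5 none of 23 passed, against 0.169% of all genes, and 3 had an unadjusted p under 0.05, as did 8.47% of all genes (Mrpl41 at 0.25, Mrps22 at -0.21 and Mrpl44 at -0.17). The log2 differences ran between -0.42 (Mrps11) and 0.36 (Mrpl32) at day 4. At day 5 they ran between -0.21 (Mrps22) and 0.26 (Mrps11). Day 3, with 1 library per vector, allows no test. None of the 19 members listed in both libraries was past a log2 difference of 0.5 in either direction, against 11.8% of all genes. Mrps11 was at 36.8 FPKM with Cdk9-DN and 49.2 FPKM with the control vector, the lowest difference at -0.41. Mrps22 was at 18.5 FPKM with Cdk9-DN and 16.6 FPKM with the control vector, the highest at 0.14.

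**Figure D3:**
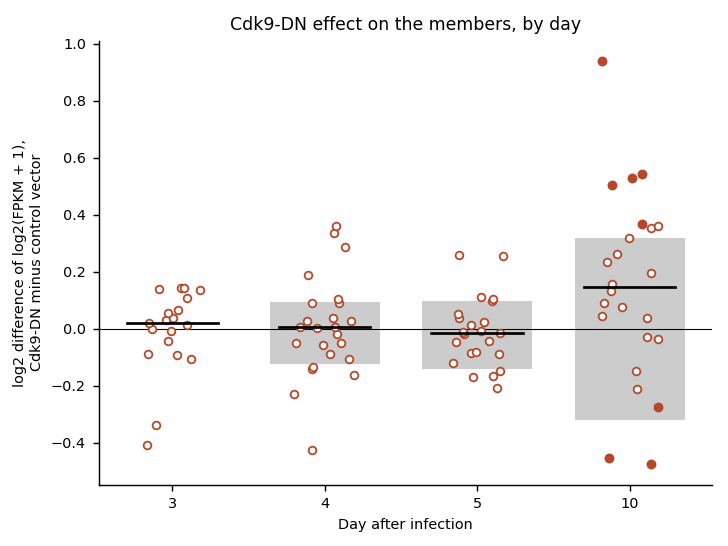
Log2 difference of log2(FPKM + 1), Cdk9-DN minus control vector (vertical axis), of each member at days 3, 4, 5 and 10 (horizontal axis). Filled points were called in limma, open points were not or could not be tested (day 3), black lines are medians of the members and grey boxes the middle 50% of all genes tested. The members ran from -0.41 to 0.14 at day 3, from -0.42 to 0.36 at day 4, from -0.21 to 0.26 at day 5, and from -0.48 to 0.94 at day 10, where the grey box widens too.

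Averaged over days 4, 5 and 10, 4 of 20 tested members were called, 20% against 10.9% of all genes, of which 4.23% were higher and 6.72% lower. Mrpl41 was higher by 0.26 (SE 0.038, limma adjusted p = 0.0168), Mrps22 by 0.26 (SE 0.045, adjusted p = 0.0201) and Mrpl50 by 0.23 (SE 0.055, adjusted p = 0.0424). Mrpl45 was lower, at -0.16 (SE 0.033, adjusted p = 0.048). These calls rested on many libraries at once: none of the 4 was made without either control library of day 4. In other fits without 1 library some were lost and some could no longer be tested. Whether the effect itself differed between days 10 and 5 was tested as the difference of the 2 effects. Of 20 members 5 were called, 25% against 16.2% of all genes, of which 8.75% were higher and 7.42% lower. The effect was higher at day 10 for Mrps22 by 1.15 (SE 0.114, adjusted p = 0.00199), Mrpl36 by 0.67 (SE 0.125, adjusted p = 0.0175) and Mrpl50 by 0.59 (SE 0.134, adjusted p = 0.0276). It was lower for Mrpl45, at -0.46 (SE 0.086, adjusted p = 0.027), and for Mrps28, at -0.39 (SE 0.099, adjusted p = 0.047). Without any 1 of the 4 libraries of day 5, or either Cdk9-DN library of day 10, 2 calls were made. Without either control library of day 4, Mrpl45 and Mrps28 were no longer called. Without either control library of day 10 no tested call was lost. Mrps22 and Mrps28 could not be tested without the first of these, nor Mrpl45 and Mrpl36 without the second.

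The course over time was then read within each vector. In Cdk9-DN cells 3 of 24 tested members were higher and 3 lower at day 10 than at day 5. These 25% stand against 34.9% of all genes, of which 1304 (22.5%) were higher and 715 (12.4%) lower. Median-of-ratios scaling, which moved the median of all genes from 0.07 to -0.02, gave 1 member higher and 5 lower, and 1017 genes higher and 956 lower. Quantile normalization gave 2 members higher and 3 lower, and 1005 genes higher and 846 lower. The epithelial markers summed to 58.5 to 65.2 FPKM in Cdk9-DN cells at day 10, against 5.56 to 8.27 FPKM at day 5, and the pluripotency markers to 19.7 to 20.4 FPKM, against 0.0883 to 0.247 FPKM. Their part here was not tested. Mrpl9 (chr3:94247240-94255052), with a bacterial counterpart, fell to 41.3 FPKM in the 1 listing Cdk9-DN library of day 10, against 55.7 and 55.2 FPKM at day 5 (-0.42, SE 0.068, limma adjusted p = 0.0045). Mrpl16 (chr19:11844881-11849434) fell to 23.7 and 24.2 FPKM, against 29.7 and 29.4 FPKM (-0.29, SE 0.079, adjusted p = 0.0247). Mrps28 fell to 21.3 and 23.0 FPKM, against 27.6 and 27.0 FPKM (-0.29, SE 0.062, adjusted p = 0.0138), and lost its call in a fit on these 2 groups alone (adjusted p = 0.0581). Mrpl45 rose to 49.98 and 49.5 FPKM, against 36.4 FPKM in the 1 listing library of day 5 (0.44, SE 0.061, adjusted p = 0.00422). Mrps9 (chr1:42908078-42962527), with a bacterial counterpart, stood at 48.9 and 48.8 FPKM, against 36.8 FPKM in the 1 listing library of day 5 (0.40, SE 0.084, adjusted p = 0.046). Neither scaling kept the call of Mrps9, whose span holds a small nucleolar RNA. Mrps31 (chr8:23521812-23540137), a small subunit protein of mitochondria only, rose to 17.2 FPKM in the 1 listing library, against 14.2 and 14.5 FPKM (0.24, SE 0.053, adjusted p = 0.0143), a call lost under median-of-ratios scaling. Without 1 Cdk9-DN library of day 10 or of day 5, several of these 6 calls were lost or could no longer be tested.

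In control cells 9 of 24 tested members were lower at day 10 than at day 5 and 3 were higher. That is 50% called, against 49.8% of all genes, so the share matched the background. The median member was at -0.22 and the median of all genes at 0.04, and the middle 50% of all genes ran from -0.48 to 0.57. Of all genes 1582 (27.3%) were higher and 1303 (22.5%) lower. Under median-of-ratios scaling or quantile normalization 12 members were lower and 2 higher. The split of all genes turned under both, to 1441 higher and 1475 lower under the first and 1334 higher and 1468 lower under the second. At day 10 the epithelial markers summed to 262 to 271 FPKM in control cells, against 5.83 to 6.30 FPKM at day 5, and the pluripotency markers to 45.8 to 53.6 FPKM, against 0.316 to 0.372 FPKM. Their part in the members' changes was not tested. Mrps22 fell to 8.43 FPKM in the 1 listing control library of day 10, against 22.2 and 21.7 FPKM at day 5 (log2 difference -1.28, SE 0.088, limma adjusted p = 7.42e-05). Mrps2, a small subunit protein with a bacterial counterpart (chr2:28323586-28326698), fell to 13.2 and 12.2 FPKM at day 10, against 24.2 FPKM in the 1 listing library of day 5. Its difference was -0.89 (SE 0.071, adjusted p = 0.000321). Mrpl40 (chr16:18872111-18876860), of the large subunit, fell to 26.4 and 24.4 FPKM at day 10, against 47.3 FPKM in the 1 listing library of day 5 (-0.87, SE 0.154, adjusted p = 0.00645). At day 4 it had been at 28.9 and 30.7 FPKM, so the size of its fall rests on that day 5 library. Mrpl50 fell to 16.9 and 13.98 FPKM, against 24.2 and 25.3 FPKM at day 5 (-0.65, SE 0.095, adjusted p = 0.00102).

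The other members that fell in control cells were Mrpl36 (-0.60), Mrpl43 (-0.52), Mrpl41 (-0.40), Mrpl9 (-0.34) and Mrpl16 (-0.27), with adjusted p-values in limma between 0.00258 and 0.023. Mrpl43 fell to 47.5 and 46.9 FPKM at day 10, against 67.9 FPKM in the 1 listing library of day 5. Mrpl9 fell to 43.0 and 41.6 FPKM, against 55.8 and 52.2 FPKM. Mrpl16 fell to 22.0 and 23.3 FPKM, against 28.3 and 26.9 FPKM, and lost its call without the first control library of day 5 or of day 10. In each of these 3 genes every day 10 value lay below every day 5 value. The members that rose were Mrpl45, Mrpl14 and Mrps31. Mrpl45 rose to 69.5 FPKM in the 1 listing library of day 10, against 37.3 and 36.6 FPKM at day 5 (0.89, SE 0.061, adjusted p = 0.000183). Mrpl14 stood at 96.7 and 91.2 FPKM, against 70.9 FPKM in the 1 listing library of day 5 (0.40, adjusted p = 0.0408), a call that neither scaling kept. Mrps31 rose to 16.6 and 16.6 FPKM, against 13.7 and 13.8 FPKM (0.25, adjusted p = 0.00374). The calls of Mrpl16 and Mrps31 were lost in a fit on these 2 groups alone, with adjusted p-values of 0.0578 and 0.0531.

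**Figure D4:**
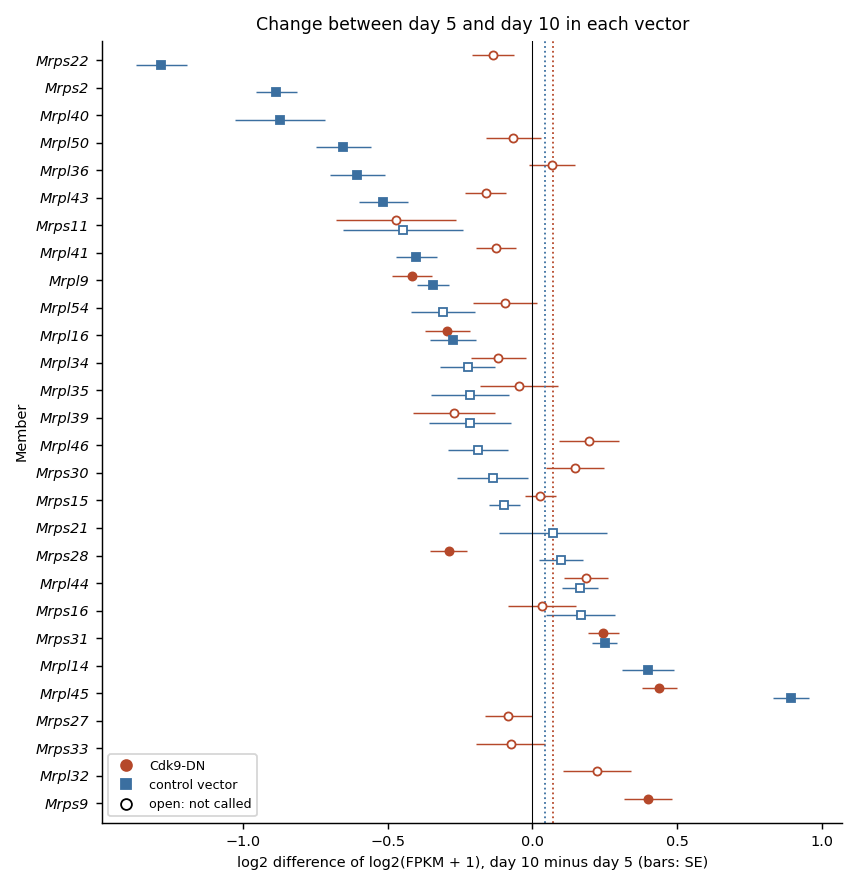
Log2 difference of log2(FPKM + 1), day 10 minus day 5 (horizontal axis, bars SE), of each tested member (vertical axis) in Cdk9-DN cells (circles) and control cells (squares). Filled symbols were called in limma; dotted lines mark the median of all genes in each vector. Mrps22, Mrpl50, Mrpl36, Mrpl43 and Mrpl41 are filled on the left in control cells and open in Cdk9-DN cells, with smaller changes there. Mrpl9 and Mrpl16 are filled on the left in both. Values are as deposited, without further scaling.

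The members fall into different patterns over the 2 vectors, which can be described from each vector's own values. Of the 9 members that fell in control cells, 7 could be tested in Cdk9-DN cells and 2 of them, Mrpl9 and Mrpl16, fell there too. The other 5 are the members that were higher with Cdk9-DN at day 10. This split may depend on the scaling. Median-of-ratios scaling called 5 members lower in Cdk9-DN cells, against 3 without it, and moved the median member there from -0.07 to -0.19. The difference of effects still gave 3 members higher and 2 lower under that scaling. Mrps22 changed by -0.14 in Cdk9-DN cells (adjusted p = 0.209) and by -1.28 in control cells. Mrpl50 changed by -0.07 (adjusted p = 0.642) in Cdk9-DN cells and by -0.65 in control cells, and Mrpl36 by 0.07 (adjusted p = 0.561) in Cdk9-DN cells and by -0.60 in control cells. For Mrps22, Mrpl36 and Mrpl50 the difference between these changes is the tested difference of effects given above. For Mrpl43 the changes were -0.16 in Cdk9-DN cells and -0.52 in control cells and their difference was not called (0.35, adjusted p = 0.0814). For Mrpl41 they were -0.13 in Cdk9-DN cells and -0.40 in control cells, with a difference of 0.28 (adjusted p = 0.135). The comparisons share the day 10 control libraries, so the members' directions in them are not independent. Mrpl45 and Mrps31 rose in both vectors, Mrpl45 by less in Cdk9-DN cells.

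Between days 4 and 5 no member was called in either vector. In Cdk9-DN cells none of 24 passed limma's test, against 3.28% of all genes, and 5 had an unadjusted p under 0.05, as did 18% of all genes, with Mrps11 highest at 0.55 (adjusted p = 0.223). In control cells none of 26 passed, against 5.02% of all genes, and 5 had an unadjusted p under 0.05, as did 20.3% of all genes, with Mrpl40 highest at 0.65 (adjusted p = 0.0967). Without either Cdk9-DN library of day 4, 1 member was called in control cells. Mrps11 and Mrpl46 start next to each other on opposite strands and share 413 bases. Mrps11 was at 40.5 and 39.8 FPKM in Cdk9-DN cells at day 5, against 26.1 and 28.1 FPKM at day 4. Mrpl46 was at 21.6 and 22.4 FPKM in Cdk9-DN cells at day 5, against 26.4 and 25.3 FPKM at day 4. The neighbours thus differed in sign, and neither passed the test. In control cells the signs were the other way round, with Mrps11 at -0.13 and Mrpl46 at 0.18, and neither was called.

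Other genes of the mitochondrial translation pathway and of the cell's other ribosome were read from lists, as counts without a test of the list. Of 31 factors of mitochondrial protein import and chaperones, 10 could be tested at day 10. Higher in Cdk9-DN cells were 5, against 14.5% of all genes, and 1 was lower, against 14.4%, with a median of 0.30. Tomm5, a small subunit of the outer membrane channel, was at 204 and 221 FPKM in Cdk9-DN cells, against 99.7 and 97.5 FPKM in control cells (1.10, SE 0.098, limma adjusted p = 0.000373). Timm10, a carrier between the membranes, was at 28.9 and 33.8 FPKM, against 17.03 and 15.8 FPKM (0.89, adjusted p = 0.00109). Timm8a1, of the same family, was at 20.6 and 19.96 FPKM, against 11.6 and 10.2 FPKM (0.84, adjusted p = 0.000422). Grpel2, a co-chaperone of the matrix, was lower, at 11.3 FPKM in the 1 listing Cdk9-DN library against 16.6 and 15.5 FPKM in control cells (-0.48, adjusted p = 0.0252). In control cells 5 of 10 import genes were lower at day 10 than at day 5, against 22.5% of all genes, and 2 were higher, against 27.3%. Among 7 tested translation and assembly factors 3 were higher with Cdk9-DN at day 10, against 14.5% of all genes. These were Tufm, the elongation factor that brings transfer RNA to the mitochondrial ribosome (81.6 FPKM in the 1 listing Cdk9-DN library against 49.6 FPKM in the 1 listing control library, 0.71, adjusted p = 0.0248), Ftsj2, a methyltransferase of its RNA (0.47, adjusted p = 0.0221), and Ddx28, a helicase of its assembly (0.29, adjusted p = 0.0418). None was lower. The 7 tested include Rnmtl1, which was listed at 0 in every day 10 library.

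Ribosomal proteins of mitochondria under other symbols did not share 1 direction. Gadd45gip1, of the large subunit, fell in Cdk9-DN cells to 10.95 and 11.2 FPKM at day 10, against 14.8 and 17.2 FPKM at day 5 (-0.49, limma adjusted p = 0.00302). It fell as well in control cells, to 9.81 and 9.84 FPKM at day 10, against 17.3 and 16.97 FPKM at day 5 (-0.74, adjusted p = 0.000303). Chchd1, of the small subunit, rose in control cells to 104 and 91.9 FPKM, against 75.3 and 73.2 FPKM at day 5 (0.39, adjusted p = 0.0264). In Cdk9-DN cells Chchd1 was at 101 FPKM in the 1 listing library of day 5 and at 72.0 FPKM in the 1 listing library of day 10. Its effect of Cdk9-DN was lower at day 10 than at day 5, at -0.88, a difference without replicates in Cdk9-DN cells. Among 31 tested subunits of oxidative phosphorylation, 7 were higher and 4 lower in Cdk9-DN cells at day 10, with a median of 0.06. These 35.5% stand against 28.9% of all genes. Among the 4 is Ndufa4l2, at 25.2 FPKM in the 1 listing Cdk9-DN library of day 10 against 51.3 FPKM in the 1 listing control library, and listed at 0 in each library up to day 5 that lists it. Ndufa4 was at 306 and 325 FPKM in Cdk9-DN cells, against 198 FPKM in the 1 listing control library (0.67, adjusted p = 0.0125). Cox4i2 was at 2.39 FPKM in the 1 listing Cdk9-DN library, against 5.77 FPKM in the 1 listing control library (-0.996, adjusted p = 0.0228). Of 2 tested mitochondrial aminoacyl-tRNA synthetases, Mars2 was higher in Cdk9-DN cells at day 10, at 4.49 and 4.52 FPKM, against 2.48 and 2.67 FPKM in control cells (0.62, adjusted p = 0.0027). Neither of the 2 tested genes of mitochondrial transcription and biogenesis was called there in limma, and 0 of them had an unadjusted p under 0.05. No gene of mitochondrial DNA could be tested.

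The list of the cytosolic ribosome, matched by symbol, had 11 tested genes at day 10. Lower in Cdk9-DN cells were 3, Rpl38 (-0.62), Rps29 (-0.48) and Rpl17 (-0.32), against 14.4% of all genes, and the median was -0.19. The 1 gene that was higher, against 14.5% of all genes, was Rpl7l1 (0.55), which acts in ribosome assembly by its human counterpart and is not a subunit. The tested genes also include Rps19bp1, by its name a binding protein of Rps19, so the median is not that of subunits alone. Reads of near-identical pseudogenes may be counted in these genes. Of 27 listed nucleolar genes of ribosome assembly, 5 could be tested at day 10. All 5 were higher with Cdk9-DN, against 14.5% of all genes, with a median of 0.83. Among them Rrs1 was at 44.3 and 45.2 FPKM in Cdk9-DN cells, against 18.8 and 19.8 FPKM in control cells (1.17, limma adjusted p = 7.58e-06). In control cells all 6 tested genes of this list were lower at day 10 than at day 5, against 22.5% of all genes. The list was chosen with earlier results of these data known, so its counts are a description only. The medians of the mitochondrial ribosomal proteins lay between those of the cytosolic list and the nucleolar list, at 0.15 in the day 10 effect.

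**Figure D5:**
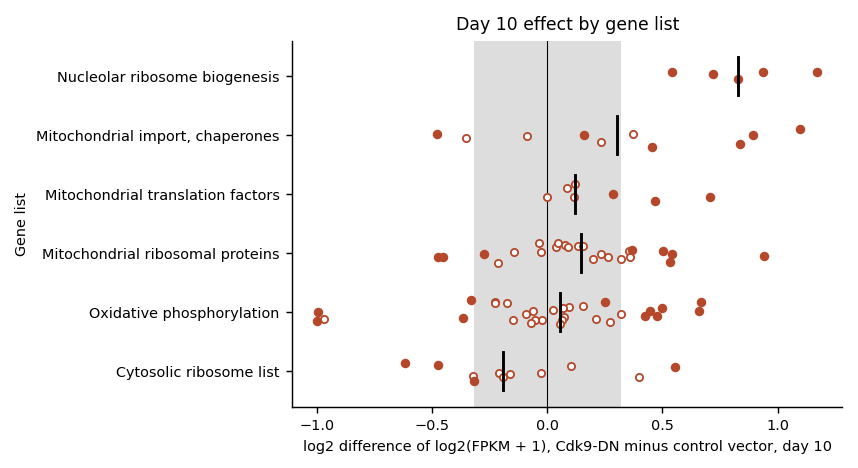
Log2 difference of log2(FPKM + 1) at day 10, Cdk9-DN minus control vector (horizontal axis), of the tested genes of 6 lists (vertical axis). Filled points were called in limma, black lines are list medians and the grey band is the middle 50% of all genes tested. The nucleolar genes are all filled and to the right with a median of 0.83, the mitochondrial ribosomal proteins centre on 0.15 and the cytosolic list on -0.19.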

How the data were processed

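Values are the FPKM that the authors deposited, 1 table per library, as named in the labels. Per the submitters' processing notes, CASAVA 1.8.2, TopHat2 2.0.10 and Cufflinks 2.2.1 were used and the builds named were mm9 and NCBIM37; the library's strand is not given in the sources used here. Counts were not used here.

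Values of entries sharing an identifier were summed. The filter kept 7460 genes that reached 1 FPKM in 2 or more libraries, out of the 12 from day 4 onwards. A cell means model of 6 groups was fitted on log2(FPKM + 1) with limma 3.58.1 in R 4.3.3, with an intensity trend, each gene on the libraries listing it and with at least 2 residual degrees of freedom (6253 genes). Fold changes on this scale understate changes of low genes. Calls need an adjusted p under 0.05 (Benjamini-Hochberg over all genes of a comparison, two-sided). The fit of the day 10 comparison was tested on simulated data. Day 3 was left out of the fit.

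Implied fragments assume that the deposited bounds lie 2 standard deviations around the FPKM and cover counting error only. File coordinates start at 0 and were raised by 1. Members and lists were chosen with earlier results of these data known. Named genes were up to 8 highest and 8 lowest called members of a comparison, the 4 highest and 4 lowest by mean FPKM among members listed in all 12 libraries, Mrps30, and up to 4 called genes of each list. Uncalled members were named at the ends of ranges or at an unadjusted p under 0.05, chosen after their values were seen. Mrpl46 was also named as the neighbour of Mrps11. Tables were handled with Python 3.11.15, pandas 2.3.3 and numpy 2.4.6, figures with matplotlib 3.10.9.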

Additional observations from a re-analysis of the deposited data

Results flagged for a closer look

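For 5 members the effect of Cdk9-DN at day 10 differed from that at day 5 by a test of the difference itself in limma. The differences were 1.15 for Mrps22, 0.67 for Mrpl36, 0.59 for Mrpl50, -0.39 for Mrps28 and -0.46 for Mrpl45 on the log2 scale.

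For 4 members, Mrps22 among them, every library of a comparison moved one way at one day and the opposite way at another, and these further differences were not tested. How many of all genes do the same was not counted, so this number says nothing about the members as a set. For Mrps11 the effect of Cdk9-DN was -0.42 at day 4 and 0.26 at day 5. For Mrps22 it was 0.039 at day 4 and -0.21 at day 5, and for Mrps31 it was -0.048 at day 4 and 0.052 at day 5. The day 4 effect of Mrps22 and both effects of Mrps31 were smaller than the counting error of 0.077 to 0.098. Mrpl34 had an effect of -0.16 at day 4 and 0.090 at day 10. Mrps31 changed by 0.083 between days 4 and 5 in Cdk9-DN cells and by -0.018 in control cells. No group had more than 2 libraries, so no library could be flagged as standing apart within its group.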

How the results depend on the processing

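Of 35 single-gene calls, 15 held under every alternative run, and over 569 alternatives 458 kept the call, 111 lost it and none changed direction. Called members of the day 10 effect (8) became 1 among genes listed in all 12 libraries and 0 in a separate fit, which leave 6 and 12 members to test. The averaged effect (4) gave 2 with a pseudocount of 0.1, without the filter, with the day 3 pair, and with the replicate block below, and 0 among genes listed in all 12 libraries. The difference of effects (5) gave 3 under quantile normalization and 1 among genes listed in all 12 libraries. For day 10 against day 5, Cdk9-DN cells (6) gave 1 both among genes listed in all 12 libraries and in a separate fit, and control cells (12) gave 2 in both. In a fit without 1 library a member can become impossible to test, so lower counts there are not all lost calls. Leaving out 1 library gave 4 to 7, 0 to 2, 2 to 4, 2 to 6 and 9 to 13 called members in these comparisons in turn, and 0 to 1 for day 5 against day 4 in control cells.

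Replicate numbers do not pair the samples: over 15 pairs of groups the deviations correlated between -0.16 and 0.10, and 1 pair passed 0.1. With a replicate block the counts were 6, 2, 4, 5 and 11 in the same order.

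At a median of 217 to 353 implied fragments per member in a library, differences of about the counting error cannot be seen at this depth, and 10 members could not be tested.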
